A study of Mus musculus with 2 samples.

Results

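Complement is a cascade of plasma proteins that tags and lyses cells, and 9 of its genes were followed here across the cells of the mouse glomerulus. Of the 31058 entries in the feature list of both libraries, these are the 9 whose symbol is C3, C4b, C1s1, C1ra, Cfb, Serping1, Cd55, Cd59a or Cr1l, and each was found once. The first 5 encode components and the other 4 encode regulators that restrain the cascade. Droplet-based single-cell RNA sequencing, with 10x libraries that read the 3' end of transcripts, had been carried out on all cells of glomeruli from kidneys of C57Bl/6 mice. Both groups carried Pax2.rtTA;TetO.Cre;R26.Confetti, in which the Pax2 promoter drives a doxycycline-dependent activator that switches on Cre and, through it, a fluorescent reporter. Mice of both groups were healthy, were given doxycycline at an age of 19 days and were killed at 30 days. One group was titled female and the other male, with 1 library each, so differences between the groups have no replicate check and no test was made.

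The classical pathway starts when the protease pair C1r and C1s, bound to C1q, cleaves C4. The alternative pathway runs on C3 and factor B, and all pathways meet at C3. Cells shield themselves with membrane proteins that take apart the convertases or block the final pore, and C1 inhibitor in plasma stops C1r and C1s. The glomerulus filters plasma and is a known site of complement injury, so where its cells make these proteins has long been of interest.

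Levels are given as CPM, the usual counts-per-1000000 scale, from UMIs (unique molecular identifiers, 1 for each captured transcript) summed over a cell class. Brackets hold exact 95% intervals, which cover counting error only. Where 2 values stand together, the first is from the library labelled female and the second from the library labelled male. The libraries held 5233 and 4974 barcodes with 67648465 and 57841860 UMIs, and 4909 and 4442 cells were kept, at medians of 10672 and 9616 UMIs. Sex-linked transcripts went against the titles: Xist, transcribed from the inactive X chromosome, was at 0.682 and 1593 CPM, and 4 Y-linked genes had 13174 and 1 UMIs. The libraries shared 10 barcodes, 7 of them among kept cells.

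Cell classes were named from marker genes that include no complement gene, and clustering did not use complement genes either. Podocyte-like cells numbered 3188 and 2387, parietal epithelial-like cells 73 and 55, mesangial-like cells 205 and 159, and glomerular endothelial-like cells 112 and 89. The smaller classes were arterial endothelial-like (64 and 65 cells), smooth muscle or renin-like (41 and 67), thick ascending limb-like (34 and 46), macrophage or monocyte-like (11 and 24) and proximal tubule-like cells (10 and 22). The 12 podocyte markers summed to 27089.5 and 29469.7 CPM in podocyte-like cells and to 1001 and 722 CPM in parietal epithelial-like cells. Parietal epithelial-like cells held their own 12 markers at 5846 and 5900.1 CPM, and also smooth muscle or renin markers at 3356 and 4256 CPM. Tubule markers in that class were lower, with collecting duct principal at 96.0 and 641 CPM, thick ascending limb at 442 and 110.1 CPM and proximal tubule at 314 and 275 CPM. Mesangial-like cells held their own at 18122 and 16591 CPM, glomerular endothelial markers at 4518 and 6668 CPM and smooth muscle or renin markers at 3519.6 and 3527 CPM. Glomerular endothelial-like cells held their own at 23624 and 22375 CPM. The part of these other transcripts in the levels below was not tested. Of 26 clusters, 7 stayed unnamed. One of these, led by Cst12, Lsp1 and Dkk3 and made of 152 and 127 cells, had the podocyte markers at 13640.0 and 15500.0 CPM and is given beside the named classes because it held several of the complement genes. It was not alone in this. Cluster 11, unnamed, led by Ren1 and Slc12a3 and made of 80 and 51 cells, had Cd59a at 778 and 906 CPM and Cd55 at 229 and 255 CPM. Its Serping1 was at 58.9 and 35.6 CPM, its C1s1 at 38.0 and 23.0 CPM and its C3 at 3.93 and 11.5 CPM.

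C3, the protein on which all complement pathways converge, was found mainly in parietal epithelial-like cells, the cells that line Bowman's capsule. Its level there was 381 CPM (353 to 410.2) and 326 CPM (293 to 363), and these cells held 83.7% and 61.7% of all C3 UMIs in kept cells. The podocyte-like cells, at 0.0990 CPM (0.0270 to 0.253) and 0.301 CPM (0.130 to 0.593), were far below. The mesangial-like and glomerular endothelial-like cells had no C3 UMI, which allows up to 1.52 and 2.10 CPM in the former and 2.23 and 4.35 CPM in the latter. Parietal epithelial-like cells were therefore at least 250.2-fold and 155-fold above mesangial-like cells, and at least 171-fold and 75.1-fold above glomerular endothelial-like cells. The gene lies on chromosome 17, from 57203970 to 57228136 on the minus strand of GRCm38. The 250 bases before its start, at chr17:57228137-57228386, are shown because C3 was carried almost wholly by 1 of the 4 glomerular classes. The capitals mark the match to TTGCNNAA, a core of the C/EBP site, which spans positions -45 to -38 on the gene's strand.
C3: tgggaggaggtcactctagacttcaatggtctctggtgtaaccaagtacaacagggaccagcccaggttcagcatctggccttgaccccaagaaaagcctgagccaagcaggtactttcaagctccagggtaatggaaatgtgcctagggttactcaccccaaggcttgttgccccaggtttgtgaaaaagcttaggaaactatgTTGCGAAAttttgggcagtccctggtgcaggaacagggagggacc
That motif was found on either strand in 9.55% of 27025 mouse promoters of the same length. The sequences are those of RefSeq for GRCm38.p6.

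Within the parietal epithelial-like class C3 was uneven from cell to cell. At least 1 C3 UMI was seen in 56 of 73 cells (76.7%) and 37 of 55 cells (67.3%), against 0.125% and 0.251% of podocyte-like cells. Whether the podocyte-like share is free RNA or expression was not tested. The classes differed in depth, with medians of 18362 and 15117 UMIs in parietal epithelial-like cells and 11034 and 10083 in podocyte-like cells. With every cell thinned to 3000 UMIs the shares were 50.7% and 43.6%, against 0 and 0.0419% in podocyte-like cells. The 8 and 6 parietal epithelial-like cells with the most C3 held 47.4% and 52.5% of the class's C3 UMIs, and the highest single cell had 76 and 54 UMIs.

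C3 was also present in the macrophage or monocyte-like cells, which are known to make it. Their level was 154 CPM (84.3 to 259; 14 UMIs in 4 of 11 cells) and 272 CPM (203 to 355; 53 UMIs in 18 of 24 cells). The parietal epithelial-like level was 2.47-fold (1.46 to 4.54) and 1.20-fold (0.898 to 1.64) that of these cells, so the classes separated in the library labelled female and overlapped within counting error in the other. In the Cst12-led cluster C3 was at 42.3 CPM (34.2 to 51.8) and 47.0 CPM (36.9 to 59.0), 8.99-fold (7.24 to 11.3) and 6.95-fold (5.39 to 9.06) below parietal epithelial-like cells. The parietal markers there summed to 1307 and 1084 CPM, against 5846 and 5900.1 CPM in the parietal epithelial-like class, and their part in the C3 level was not tested. Proximal tubule-like cells had 34.9 CPM (17.4 to 62.5) and 96.3 CPM (72.1 to 126), from 3 cells in each library. No C3 UMI was seen in arterial endothelial-like, smooth muscle or renin-like or thick ascending limb-like cells.

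**Figure D1:**
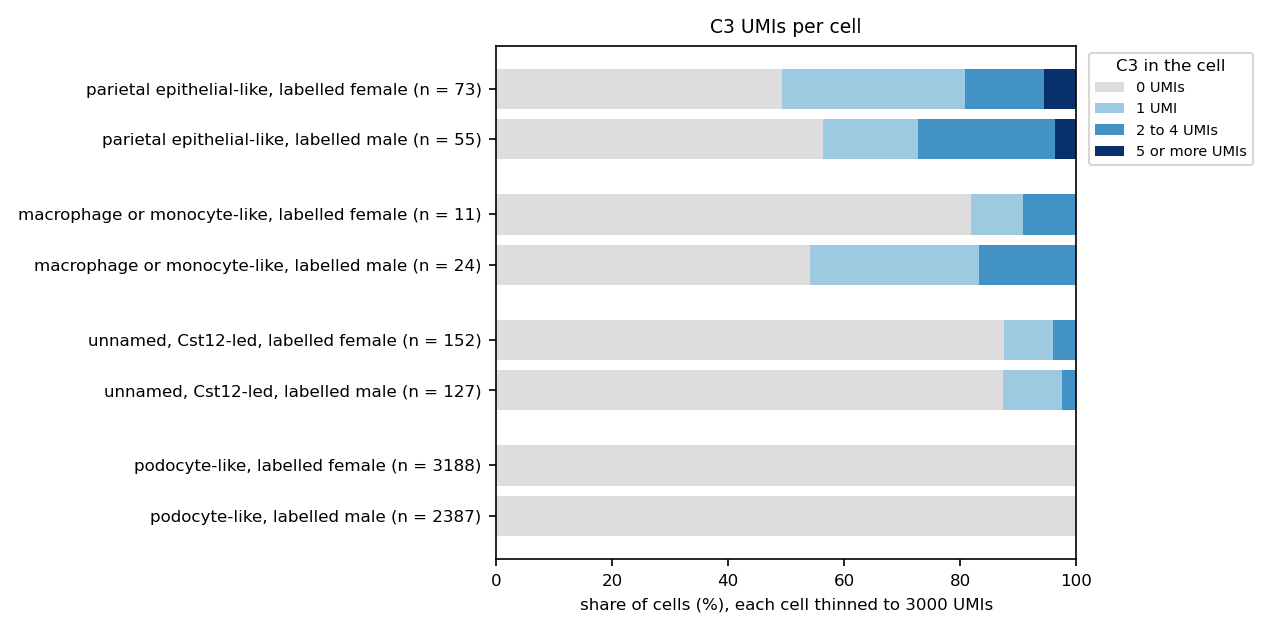
Share of cells (%, horizontal axis) with 0, 1, 2 to 4 and 5 or more C3 UMIs after each cell was thinned to 3000 UMIs, for 4 cell groups in each library, with the number of cells in brackets. About as many parietal epithelial-like cells hold C3 (50.7% and 43.6%) as hold none, while podocyte-like cells hold none or almost none.

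C1s1 and C1ra encode the mouse C1s and C1r proteases, and both were highest among the glomerular classes in mesangial-like cells, the pericyte-like cells between the capillaries. C1s1 was at 149.6 CPM (133 to 168) and 158 CPM (138 to 181) there. It was at 38.1 CPM (29.6 to 48.2) and 40.2 CPM (29.0 to 54.3) in parietal epithelial-like cells and at 4.55 CPM (3.92 to 5.26) and 7.34 CPM (6.34 to 8.44) in podocyte-like cells. The mesangial-like level was thus 3.93-fold (3.01 to 5.19) and 3.94-fold (2.83 to 5.62) the parietal epithelial-like level, nearly the same ratio in both libraries. It was 32.9-fold (27.2 to 39.7) and 21.6-fold (17.7 to 26.3) the podocyte-like level. Smooth muscle or renin-like cells, at 153 CPM (113 to 202) and 113 CPM (86.1 to 146), could not be ordered against mesangial-like cells, because the ranges over both libraries overlapped.

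C1ra was also highest in mesangial-like cells. Mesangial-like cells had 41.1 CPM (32.6 to 51.1) and 43.5 CPM (33.3 to 55.7), parietal epithelial-like cells 24.3 CPM (17.6 to 32.6) and 18.2 CPM (10.9 to 28.4), and podocyte-like cells 4.06 CPM (3.46 to 4.73) and 6.70 CPM (5.75 to 7.76). Smooth muscle or renin-like cells (9.35 and 21.1 CPM) overlapped with both parietal epithelial-like and glomerular endothelial-like cells (9.65 and 13.0 CPM). The library values of parietal epithelial-like and glomerular endothelial-like cells did not overlap. Their counting intervals did in the library labelled male, at 10.9 to 28.4 CPM and 5.96 to 24.7 CPM. As podocyte-like cells were so many, they still held 38.7% and 42.2% of all C1ra UMIs. After thinning, 1.04% and 1.76% of podocyte-like cells had a C1ra UMI. The share in arterial endothelial-like cells was 1.56% (0.0396 to 8.40) and 1.54% (0.0389 to 8.28), from 1 cell in each library. Their level was 1.48 and 1.72 CPM, from 1 UMI in each library. So few cells give no usable background, and whether the podocyte-like share is expression or free RNA was not tested.

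Both genes lie side by side on chromosome 6 of GRCm38, C1ra from 124512405 to 124523443 on the plus strand and C1s1 from 124530345 to 124542359 on the minus strand. The 250 bases before the C1s1 start, at chr6:124542360-124542609, the first of 2 starts listed, are shown because C1s1 was highest in mesangial-like cells among the 4 glomerular classes. The capitals mark a match to TTGCNNAA on the opposite strand, at positions -242 to -235.
C1s1: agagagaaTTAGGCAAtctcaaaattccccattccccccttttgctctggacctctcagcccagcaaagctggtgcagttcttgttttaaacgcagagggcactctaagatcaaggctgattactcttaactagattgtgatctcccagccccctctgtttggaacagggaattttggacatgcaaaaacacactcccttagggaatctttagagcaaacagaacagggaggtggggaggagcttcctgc
The 250 bases searched for C1ra, at chr6:124512371-124512620, began before the gene start given above but lay mostly within the gene. They held no match to any of the 7 motifs searched, and bases further upstream were not searched.

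The other components were close to absent. C4b, the C4 gene, had 3 and 5 UMIs in all kept cells, spread over podocyte-like cells (1 and 3) and single UMIs in other groups. Cfb, which encodes factor B, had 4 and 8 UMIs, of which 4 lay in proximal tubule-like cells of the library labelled male. Neither gave a level that could be ordered across classes. C4b spans 34728380 to 34743882 and Cfb 34856374 to 34862518 of chromosome 17, both on the minus strand of GRCm38.

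**Figure D2:**
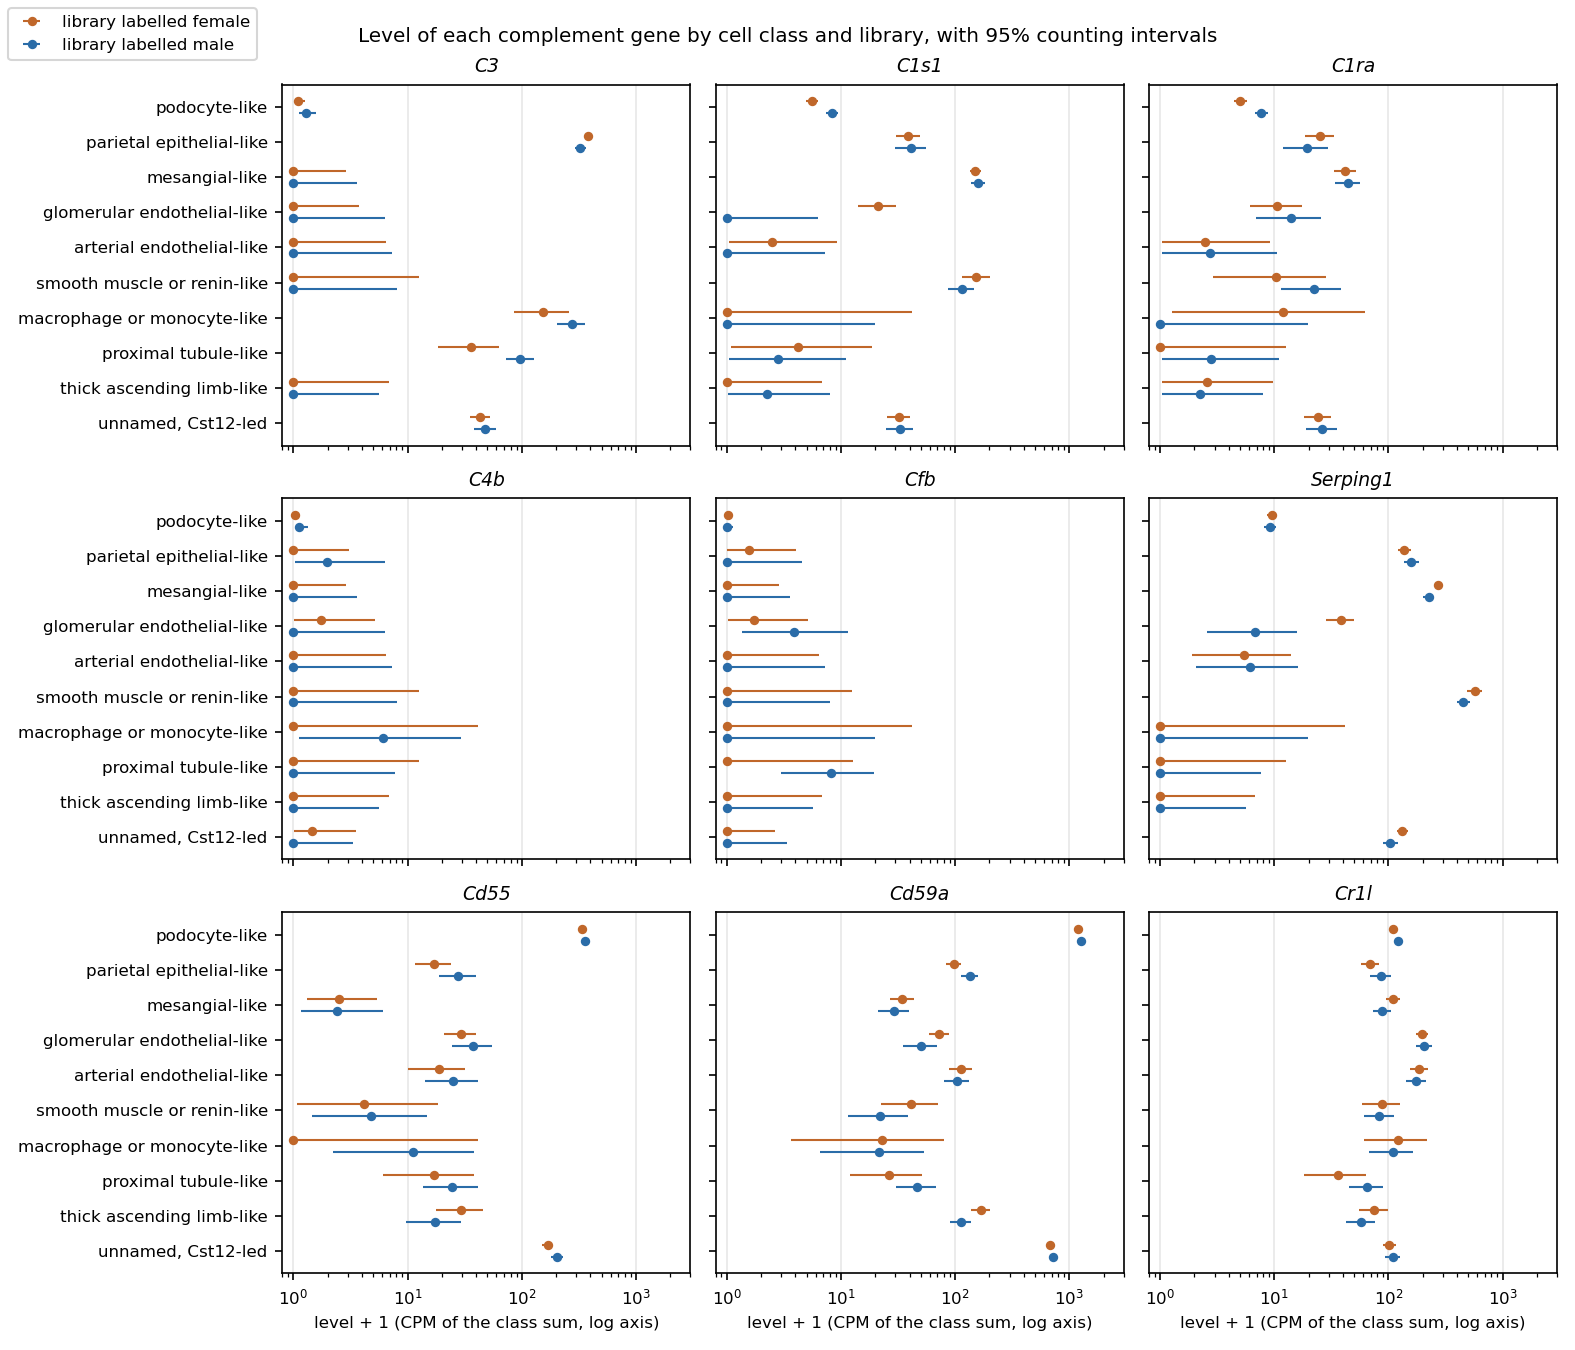
Level of each of the 9 genes (CPM of the class sum plus 1, log axis) in 9 named cell classes and the unnamed Cst12-led cluster, with points for the libraries labelled female and male and exact 95% counting intervals. C3 is highest in parietal epithelial-like cells (381 and 326 CPM), followed by macrophage or monocyte-like cells (154 and 272 CPM). The counting intervals of these classes overlap in the library labelled male. C1s1 stands apart in mesangial-like and smooth muscle or renin-like cells. Cd55 and Cd59a stand apart in podocyte-like cells and, lower, in the Cst12-led cluster, while Cr1l is present in every class shown.

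Serping1 encodes C1 inhibitor, the secreted serpin that inactivates C1r and C1s. It was highest in smooth muscle or renin-like cells, at 570.4 CPM (491 to 659) and 454 CPM (398 to 516). Mesangial-like cells followed at 273 CPM (251 to 297) and 224 CPM (200.5 to 250.4), and parietal epithelial-like cells, which also held smooth muscle or renin markers, at 137 CPM (121 to 156) and 158 CPM (135 to 184). These 3 classes kept that order in both libraries, and neighbours in it did not overlap. Podocyte-like cells were far lower, at 8.61 CPM (7.73 to 9.57) and 8.17 CPM (7.12 to 9.33). Mesangial-like cells were 31.7-fold (27.7 to 36.4) and 27.5-fold (23.1 to 32.8) above them, and parietal epithelial-like cells 16.0-fold (13.5 to 18.8) and 19.3-fold (15.7 to 23.8). The transcript was seen in 85.9% and 79.2% of mesangial-like cells, in 69.9% and 58.2% of parietal epithelial-like cells and in 4.69% and 4.62% of arterial endothelial-like cells, at median depths of 8100 and 7315, 18362 and 15117, and 9041 and 7045 UMIs. No Serping1 UMI was seen in thick ascending limb-like, proximal tubule-like or macrophage or monocyte-like cells. The gene spans 84765387 to 84775444 of chromosome 2 on the minus strand of GRCm38.

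In glomerular endothelial-like cells, Serping1 and C1s1 differed between the libraries. Serping1 was at 37.1 CPM (27.6 to 48.9) in the library labelled female and 5.79 CPM (1.58 to 14.8) in the library labelled male. C1s1 was at 20 CPM (13.2 to 29.2) and had no UMI in the other library, which allows up to 4.35 CPM. In the library labelled female, 5 of the 112 cells held 2 or more UMIs of Pdgfrb, a pericyte and mesangial receptor, and those 5 cells held 27 of the 27 C1s1 UMIs and 45 of the 50 Serping1 UMIs. Without them C1s1 had no UMI (up to 2.92 CPM) and Serping1 was at 4.86 CPM (1.58 to 11.4). The library labelled male had 0 such cells. The 12 mesangial markers summed to 2219.8 and 75.3 CPM in this class, with 0 and 2 of them at 0.

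The surface regulators Cd55 and Cd59a were highest in podocyte-like cells, the epithelial cells on the outer face of the filter. Cd55, or decay-accelerating factor, takes apart the C3 convertases. It was at 339 CPM (334 to 345) and 359 CPM (352 to 366), and 94.6% and 93.7% of podocyte-like cells had a UMI. Cd59a, which blocks assembly of the membrane attack pore, was at 1182 CPM (1172 to 1193) and 1256 CPM (1243 to 1269.6), with a UMI in 99.9% and 100% of podocyte-like cells. Even after thinning to 3000 UMIs, 61.0% and 61.6% of these cells had Cd55 and 96.0% and 96.3% had Cd59a. Podocyte-like cells were the highest class for both genes and separated from the other 8 named classes of at least 10 cells.

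The other glomerular classes had little Cd55. Parietal epithelial-like cells were at 16.0 CPM (10.7 to 23.0) and 26.8 CPM (17.8 to 38.7) and glomerular endothelial-like cells at 28.2 CPM (20 to 38.7) and 36.2 CPM (23.4 to 53.5). Mesangial-like cells had 3 and 2 UMIs, or 1.52 CPM (0.314 to 4.45) and 1.40 CPM (0.170 to 5.07), and were the lowest of the 4 glomerular classes. The podocyte-like level was 21.2-fold (14.8 to 31.7) and 13.4-fold (9.27 to 20.2) the parietal epithelial-like one, 12-fold (8.76 to 17.0) and 9.92-fold (6.71 to 15.3) the glomerular endothelial-like one, and 223-fold (76.3 to 1081) and 256-fold (70.9 to 2115) the mesangial-like one. These folds depend on how classes are drawn: over 12 alternative settings, 3 of them chosen after seeing the data, Cd55 reached 47.3 and 24.5 CPM in mesangial-like cells, 99.4 and 133 CPM in parietal epithelial-like cells and 71.1 and 80.5 CPM in glomerular endothelial-like cells, against 327 to 358 and 342 to 383 CPM in podocyte-like cells. The T or NK-like cells, only 7 and 32 in number, had Cd55 at 97.7 CPM (46.9 to 179.8) and 43.3 CPM (22.4 to 75.6). Cd55 lies on chromosome 1, from 130439027 to 130462744 on the minus strand.

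Cd59a was also found in the other glomerular classes. It was at 96.6 CPM (82.8 to 112) and 133 CPM (112 to 157) in parietal epithelial-like cells, 72.0 CPM (58.4 to 87.9) and 49.3 CPM (34.1 to 68.8) in glomerular endothelial-like cells, and 33.5 CPM (25.9 to 42.6) and 28.0 CPM (20 to 38.2) in mesangial-like cells. Outside the tuft, thick ascending limb-like cells had 167 and 112 CPM and arterial endothelial-like cells 111 and 103 CPM, and these classes overlapped with parietal epithelial-like cells. Podocyte-like cells stood 12.2-fold (10.6 to 14.3) and 9.44-fold (7.99 to 11.2) above parietal epithelial-like cells. Over the alternative settings Cd59a reached 413 and 488 CPM in parietal epithelial-like, 215 and 154 CPM in glomerular endothelial-like and 193 and 113 CPM in mesangial-like cells. Podocyte marker transcripts were present in all these classes, and the Cd59a level is therefore set beside them. As a percent of the podocyte-like level, the 12 podocyte markers together were at 3.70% and 2.45% in parietal epithelial-like cells, where Cd59a was at 8.17% (7 to 9.47) and 10.6% (8.90 to 12.5) and Cd55 at 4.72% (3.16 to 6.78) and 7.46% (4.96 to 10.8). In glomerular endothelial-like cells the markers were at 4.96% and 5.19%, Cd59a at 6.09% (4.94 to 7.43) and 3.92% (2.72 to 5.48), and Cd55 at 8.32% (5.88 to 11.4) and 10.1% (6.52 to 14.9). In mesangial-like cells the markers were at 2.04% and 1.83%, Cd59a at 2.83% (2.19 to 3.6) and 2.23% (1.59 to 3.04), and Cd55 at 0.449% (0.0925 to 1.31) and 0.391% (0.0473 to 1.41). The part of free podocyte RNA or mixed cells in these low levels was not tested. Cd59a spans 104095801 to 104115354 of chromosome 2 on the plus strand. Its neighbour Cd59b is a near copy, at 208 and 207 CPM in podocyte-like cells, and how the counting split reads between the copies is not given, so the level of either alone is uncertain.

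The promoters of both genes are shown because their levels moved together across classes, with Pearson's r of 0.95 between their log2 levels over 10 points (5 classes in each of the 2 libraries, a description with no test). The Cd55 stretch is at chr1:130462745-130462994 on the minus strand and the Cd59a stretch at chr2:104095551-104095800 on the plus strand, each the 250 bases before the start. Capitals in Cd59a mark GAAANNGAA, an interferon response core, at positions -187 to -179, found in 7.16% of the promoters compared.
Cd55: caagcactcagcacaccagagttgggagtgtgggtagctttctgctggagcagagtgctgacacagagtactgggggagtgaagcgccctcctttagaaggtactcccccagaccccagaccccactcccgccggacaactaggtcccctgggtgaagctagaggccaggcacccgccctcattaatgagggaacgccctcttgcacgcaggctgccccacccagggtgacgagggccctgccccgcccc
Cd59a: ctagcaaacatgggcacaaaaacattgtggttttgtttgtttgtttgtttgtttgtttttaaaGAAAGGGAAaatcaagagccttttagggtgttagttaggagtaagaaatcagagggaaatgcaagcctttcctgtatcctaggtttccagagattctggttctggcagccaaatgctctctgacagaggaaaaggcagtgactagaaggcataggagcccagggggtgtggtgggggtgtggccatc
Cd55 held no match to any motif searched, and the base composition differed, with 64.0% G or C in Cd55 and 44.8% in Cd59a.

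Cr1l, also called Crry, is a rodent membrane protein that both speeds decay of the convertases and helps factor I cleave C3b and C4b. It was found in each named class. Glomerular endothelial-like cells were highest, at 197 CPM (174 to 222) and 204 CPM (172 to 241), followed by arterial endothelial-like cells at 185 CPM (154 to 220.0) and 173 CPM (141 to 211), with library values that did not overlap and counting intervals that did. Podocyte-like cells had 109.5 CPM (106 to 113) and 120.5 CPM (116 to 125) and mesangial-like cells 109 CPM (95.0 to 125) and 87.6 CPM (73.0 to 104). Parietal epithelial-like cells had 68.4 CPM (56.9 to 81.6) and 85.2 CPM (68.4 to 105). Glomerular endothelial-like cells were 1.80-fold (1.58 to 2.03) and 1.70-fold (1.42 to 2.01) above podocyte-like cells. They were 2.88-fold (2.31 to 3.59) and 2.40-fold (1.83 to 3.16) above parietal epithelial-like cells. Macrophage or monocyte-like cells, at 121 CPM (60.5 to 217) and 108 CPM (66.6 to 164), overlapped with podocyte-like and mesangial-like cells. The lowest levels were in thick ascending limb-like (74.0 and 56.8 CPM) and proximal tubule-like cells (34.9 and 63.6 CPM). The gene spans 195097382 to 195131586 of chromosome 1 on the minus strand, and its promoter stretch held no match to the motifs searched.

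**Figure D3:**
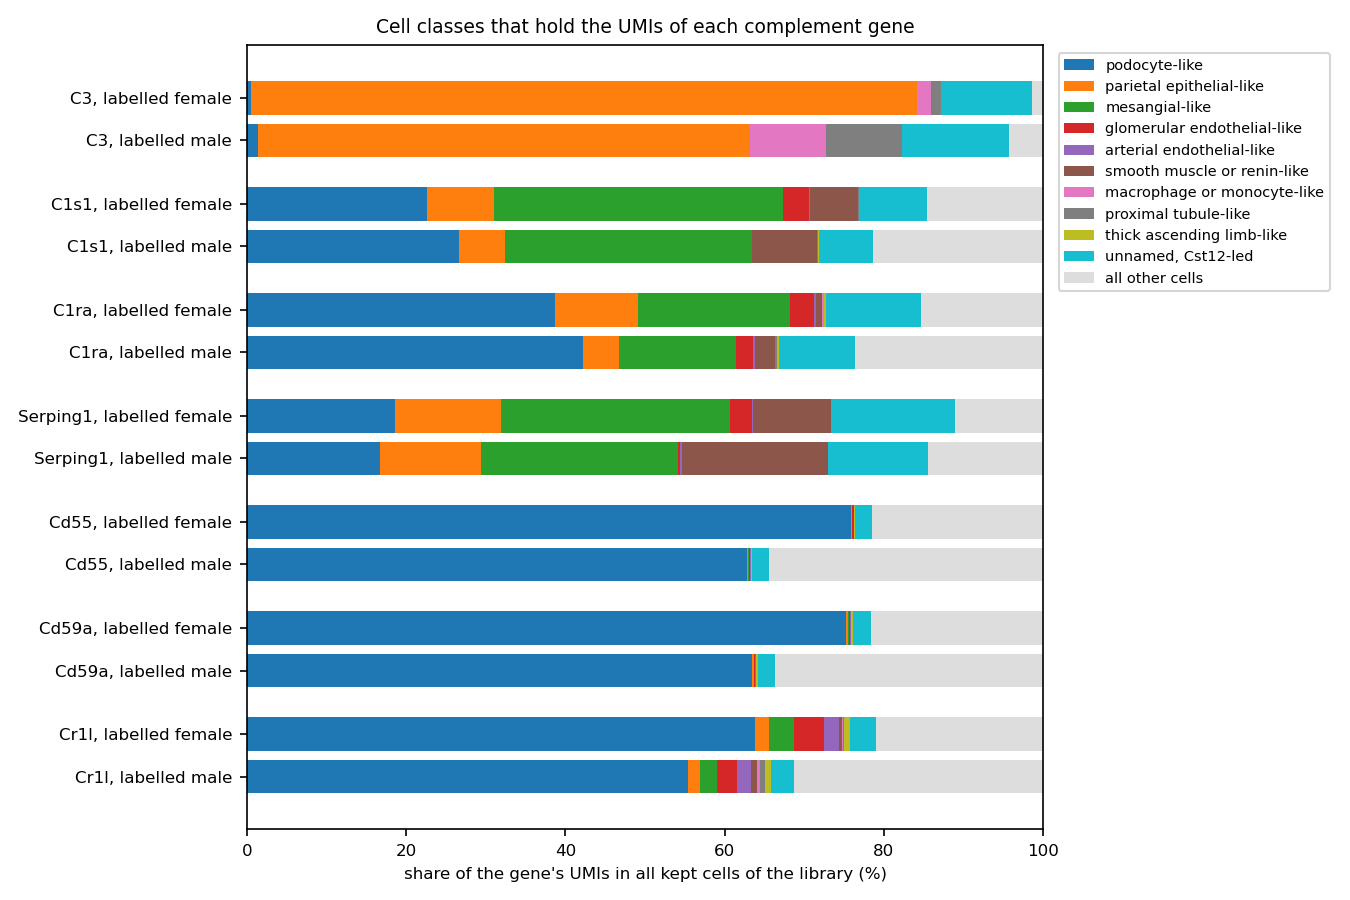
Share of each gene's UMIs (%, horizontal axis) in all kept cells of a library that lay in each class, for 7 genes and both libraries; C4b and Cfb are left out for having too few UMIs. The bars depend on class size as well as level: podocyte-like cells hold 75.8% and 62.8% of Cd55, parietal epithelial-like cells 83.7% and 61.7% of C3, and the light grey part is all other cells. It includes 2 unnamed clusters with all 12 podocyte markers, which hold a further 14.2% and 22.3% (cluster 0) and 5.25% and 10.3% (cluster 6) of Cd55.

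The podocyte-like class was made of 6 clusters, and Cd55, Cd59a and Cr1l differed among them. Cd55 ran from 311 to 416 CPM in the library labelled female and from 305 to 439.8 CPM in the library labelled male, and Cd59a from 1076 to 1339 CPM and from 1147 to 1438 CPM. Cr1l ran from 96.9 to 127 CPM and from 104 to 128 CPM. For each of the 3 genes and in both libraries, the lowest cluster was the one numbered 4, led by Gm26532 and with immediate-early genes such as Atf3 among its top genes. The highest was number 7, led by Mylk3, a myosin light chain kinase gene. The spread from lowest to highest was 1.34-fold and 1.44-fold for Cd55, 1.24-fold and 1.25-fold for Cd59a and 1.31-fold and 1.23-fold for Cr1l. Cluster 4 held 635 and 186 cells and cluster 7 held 210 and 307, so the libraries drew on these clusters unequally. For Cr1l in the library labelled male, the counting intervals of clusters 4 and 7 overlapped. Cd59b, the near copy of Cd59a, was also highest in cluster 7 (272 and 256 CPM), but its lowest cluster was 4 (179.6 CPM) in the library labelled female and 5 (175 CPM) in the other, a spread of 1.51-fold and 1.46-fold. Unnamed clusters with all 12 podocyte markers were not ranked here. Cluster 0 had Cr1l at 128 and 127 CPM, Cd59a at 1329 and 1349.7 CPM and Cd55 at 376 and 395 CPM. For Cr1l in both libraries, and for Cd59a in the library labelled female, its counting intervals overlapped those of cluster 7. Cr1l in cluster 5 of the library labelled male was also close, at 126 CPM (114 to 139.7) against 128 CPM (118 to 140.0) in cluster 7.

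**Figure D4:**
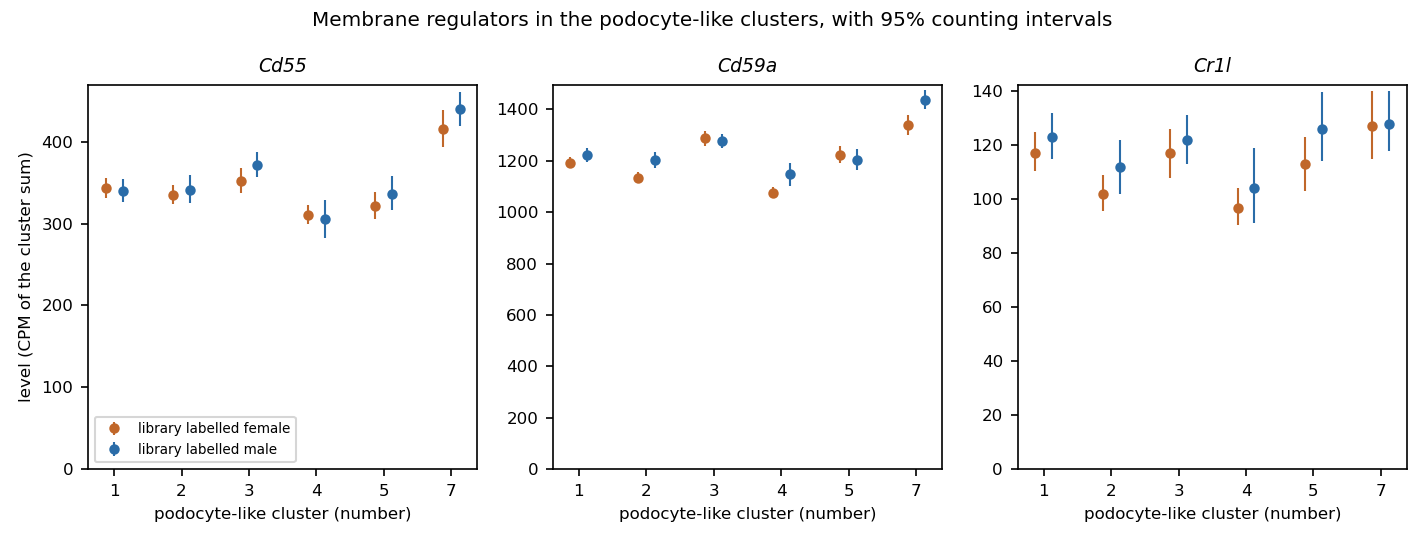
Level (CPM of the cluster sum, linear axis from 0) of Cd55, Cd59a and Cr1l in the 6 podocyte-like clusters, by number, for the libraries labelled female and male with exact 95% counting intervals. Cluster 4 is lowest and cluster 7 highest for each gene in both libraries, for example 311 and 416 CPM for Cd55 in the library labelled female.

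The Cst12-led cluster carried both the components and the membrane regulators. Cluster 11, given above, also held C1s1, Serping1, Cd55 and Cd59a together. Beside its C3, the Cst12-led cluster had C1s1 at 31.1 CPM (24.2 to 39.3) and 31.7 CPM (23.6 to 41.8), C1ra at 23.0 and 25.4 CPM, and Serping1 at 131 CPM (117 to 147) and 103 CPM (88.2 to 121). Its Cd55 was at 168 CPM (151 to 185) and 203 CPM (181 to 227) and its Cd59a at 671 CPM (638 to 706) and 724 CPM (682 to 767). As a percent of the podocyte-like level, Cd55 was at 49.4% (44.4 to 54.7) and 56.6% (50.4 to 63.2) and Cd59a at 56.8% (53.9 to 59.8) and 57.6% (54.3 to 61.1), close to the 50.4% and 52.6% of the podocyte markers together. Whether these are cells of 1 kind or mixed droplets was not tested. The doublet caller did not work on these libraries.

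The classes were next compared across the genes that were at 20 CPM or more in the higher class of a pair in both libraries. Of the 2 components that did so, C3 and C1s1, both were at least 2-fold higher in parietal epithelial-like than in podocyte-like cells in both libraries, as was 1 of 4 regulators, Serping1, against 17.3% of all 7199 genes tested. For mesangial-like over podocyte-like cells the counts were 2 of 2 components, C1s1 and C1ra, and 1 of 4 regulators, again Serping1, against 18.5% of 7140 genes. No component reached the level needed for glomerular endothelial-like over podocyte-like cells, and 0 of 3 regulators passed, against 19.2% of 7204 genes. In the other direction Cd55 and Cd59a were at least 2-fold higher in podocyte-like cells than in parietal epithelial-like, mesangial-like and glomerular endothelial-like cells, against 8.83%, 11.5% and 13.2% of genes. These 9 genes were picked with earlier results of these data known, and so the shares describe them and support nothing further. The highest of the 4 glomerular classes was the same in both libraries for each gene except C4b, but for Cfb it rested on 1 and 2 UMIs, so neither gene is read.

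In podocyte-like cells, none of the 3 genes at 20 CPM or more there, Cd55, Cd59a and Cr1l, was 1.5-fold or more apart, against 1.45% of 6147 genes. Below that level, C1ra (4.06 and 6.70 CPM) and C1s1 (4.55 and 7.34 CPM) were lower in the library labelled female, at ratios of 0.606 (0.487 to 0.753) and 0.620 (0.504 to 0.763). In mesangial-like cells 0 of 5 were, against 9.13% of 6933 genes. In parietal epithelial-like cells 1 of 7 was, Cd55, against 12.0% of 7470 genes, at 16.0 and 26.8 CPM, a ratio of 0.597 (0.343 to 1.04), an interval that holds 1. In glomerular endothelial-like cells 2 of 5 were, C1s1 and Serping1, against 19.3% of 7161 genes, and both rested on the 5 cells described above. The ratio for C3 in parietal epithelial-like cells was 1.17 (1.02 to 1.33) and for Serping1 in mesangial-like cells 1.22 (1.06 to 1.40), with intervals that cover counting error only. The median log2 ratio of the genes at this level was -0.09 in podocyte-like, -0.19 in parietal epithelial-like, 0.19 in mesangial-like and 0.47 in glomerular endothelial-like cells, while over all genes tested it lay between -0.01 and 0.02. These medians rest on 3, 7, 5 and 5 genes and are not read as a shift of the set. In glomerular endothelial-like cells the 5 values were 1.59 for C1s1 and 1.58 for Serping1, which rested on the 5 cells, 0.47 for Cd59a, -0.05 for Cr1l and -0.27 for Cd55.

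**Figure D5:**
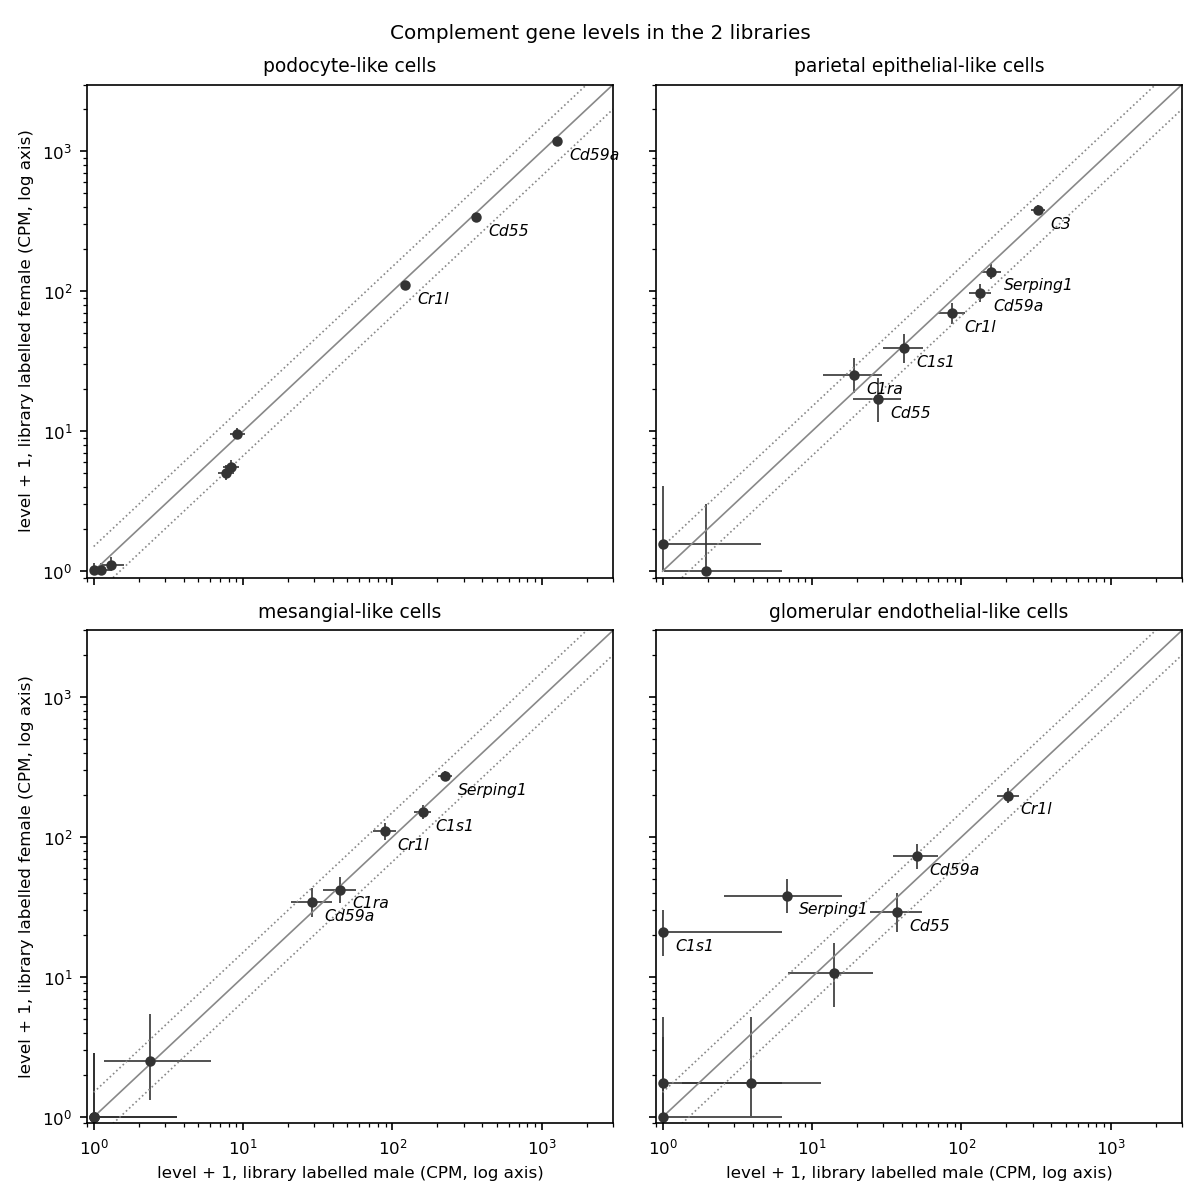
Level of each gene in the library labelled female (vertical axis) against the library labelled male (horizontal axis), as CPM plus 1 on log axes, in the 4 glomerular classes with exact 95% counting intervals; the solid line marks equal levels and the dotted lines a 1.5-fold difference. Genes at 20 CPM or more lie along the solid line in podocyte-like and mesangial-like cells, while C1s1 (20 and 0 CPM) and Serping1 (37.1 and 5.79 CPM) lie above it in glomerular endothelial-like cells.

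The rest of the pathway was read from a list of 57 complement genes, of which 56 were in the files and 47 are not among the 9. Of these 47, 11 reached 20 CPM and 10 UMIs in at least 1 class in each library, and 12 listed genes had no UMI in any kept cell. The recognition molecules of the classical pathway were nearly unseen in kept cells. C1qa had 0 and 0 UMIs, C1qb 1 and 0, and C1qc 0 and 0. Macrophage or monocyte-like cells had none, but with only 11 and 24 cells this allows up to 33.1 and 15.4 CPM. The terminal genes that form the pore were at most traces, with 0 of 7 reaching the level. The alternative pathway's stabiliser Cfp, or properdin, was at 220.4 CPM (135 to 340.4) and 164 CPM (112 to 231) in macrophage or monocyte-like cells, along with the subunits of complement receptor CR3, Itgam at 176 and 210.0 CPM and Itgb2 at 165 and 312 CPM. Masp1, a protease of the lectin pathway, was at 28.7 and 28.7 CPM in parietal epithelial-like cells, against 0.965 and 0.903 CPM in podocyte-like cells. C1s2 and C1rb, near copies of C1s1 and C1ra, had no more than 5 UMIs in a library.

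Among soluble regulators, Clu, or clusterin, which binds the forming pore, was highest in parietal epithelial-like cells, at 516 CPM (484 to 551) and 362 CPM (326 to 400.1), with 122 and 85.5 CPM in glomerular endothelial-like cells and 4.06 and 3.99 CPM in podocyte-like cells. C4bp, a cofactor for C4b cleavage, was at 18.2 and 20.1 CPM in parietal epithelial-like cells and had no UMI in podocyte-like, mesangial-like or glomerular endothelial-like cells. On the surface, Thbd, or thrombomodulin, marked the endothelial classes, at 279.9 and 374 CPM in glomerular and 595 and 472 CPM in arterial endothelial-like cells, and Cd93 was at 1096 and 1000.2 CPM in the latter. Colec12, a scavenger receptor with a collectin domain, was at 149.9 and 156 CPM in podocyte-like cells and at no more than 19.2 CPM in the parietal epithelial-like, mesangial-like, endothelial-like and smooth muscle or renin-like cells. C1qbp, a mitochondrial protein that can bind C1q, was present throughout, at 49.6 and 50.3 CPM in podocyte-like cells.

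The genes whose levels were most alike those of each of 6 members were taken from 5343 genes at 50 CPM or more in some class in each library, by Pearson's r of log2(CPM + 10) over the same 10 points. These points share libraries, and most reflect a single high class, so r is a description. The 5 classes used were those with at least 50 cells in each library. Smooth muscle or renin-like cells, the highest class for Serping1, and macrophage or monocyte-like cells, which held C3, were therefore left out of r. For C3 the most alike genes were Ms4a2, Edn3 and Itgb6, each at 1 after rounding, and for C1s1 Cacna2d1 at 0.997, Rarres2 at 0.994 and Myl9 at 0.987. For Serping1 they were Tpm2 at 0.993, Fhl2 at 0.992 and Setbp1 at 0.990. For Cd55 they were Ripor1 at 0.992, Atp8b1 at 0.992 and Jtb at 0.986, and for Cd59a Vps13a at 0.989, Lyrm9 at 0.986 and Ptpro, a podocyte membrane phosphatase, at 0.982. For Cr1l they were Gosr2 at 0.986, Adam17 at 0.968 and Pggt1b at 0.966. Among the members, C1s1 and Serping1 gave 0.96, Cd55 and Cd59a 0.95, and C3 and Cd59a -0.04.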

How the data were processed

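The authors deposited 1 matrix of UMI counts for each library, unnormalized. The submitters' processing notes list STAR 2.7.5a, Cell Ranger 6.1.2 and build mm10; neither annotation nor strand setting is given in the sources used here. Gene coordinates are from GENCODE for GRCm38, the assembly also called mm10. The 9 genes and all gene lists were chosen with earlier results of these data known.

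Barcodes with over 20% mitochondrial UMIs (283 and 504) or under 500 genes (a further 41 and 28) were left out. Scrublet, run in scanpy 1.11.5, called 2 and 1 doublets, under 0.5% of cells, and so has not worked. Cells were scaled to 10000 UMIs, and 2000 variable genes, without mitochondrial, reporter, Xist, Tsix, Y-linked, haemoglobin and complement genes, gave 30 principal components. Leiden clustering (leidenalg 0.10.2, igraph 0.11.9, resolution 1) ran on a graph of 20 shared neighbours (scikit-learn 1.9.0), once on all cells and again on the clusters that were not podocytes. A cluster was named from at least 3 markers, where a marker counted if it reached 50 CPM, was seen in more than 20% of cells and exceeded the lower quartile over clusters by more than 2-fold. Of the classes that met this, the one with the highest mean relative marker level was taken. A cluster stayed unnamed if its top genes by fold held more markers of another list than of its own. Cell-cycle-led or shallow clusters with no marker of their own among those genes also stayed unnamed. The second pass, the removal of haemoglobin genes and the naming rule were chosen after earlier versions of the clusters were seen, and before the levels of the 9 genes were looked at. The unnamed clusters include 2 with all 12 podocyte markers. Cluster 0 (679 and 930 cells) had the erythroid markers Hbb-bs and Hba-a1 among its top genes. Cluster 6 (218 and 353 cells) had Cxcl12, which is on the arterial endothelial list.

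Counts were summed per class and library (numpy 2.4.6, scipy 1.17.1, pandas 2.3.3). Levels have exact Poisson, shares Clopper-Pearson and ratios exact conditional binomial intervals at 95%. UMIs of 1 cell are not independent samples of a class, so intervals leave out variation between cells. For a gene with no count the limit is 3 counts. Log2 ratios used CPM plus 10. The ratio intervals were tested on simulated data, and the outcome is not given here. With 1 library a group no p-value is given. Neighbours in an order of classes were called overlapping when the ranges over the libraries, from lowest to highest level, overlapped. Named genes were the 9 members, the listed pathway genes at 20 CPM and 10 UMIs in some class in each library (1 of which is not reported here), a few others of that list named after their values were seen (C1qa, C1qb, C1qc, C1s2, C1rb, C4bp), and the 3 most alike genes for each member at 50 CPM or more. Motifs searched on both strands were TTCNNNGAA, GAAANNGAA, GGGACTTTC, GGAATTTCC, TTGCNNAA, TGACGTCA and TGANTCA, found in 7.18%, 7.16%, 0.278%, 0.292%, 9.55%, 1.62% and 6.87% of promoters. Promoters of 6 members were matched by symbol; C4b, Cfb and Serping1 were not. A total of 12 alternative settings, and 3 added after seeing the data, are reported in the closing section.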

Additional observations from a re-analysis of the deposited data

Results flagged for a closer look

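C1s1 and Serping1 in glomerular endothelial-like cells, relative to podocyte-like cells, went in opposite directions in the 2 libraries. For C1s1 the log2 ratio of CPM plus 10 was 1.05 for the library labelled female and -0.79 for the one labelled male. For Serping1 it was 1.34 and -0.20. The difference was not tested, since each group had 1 library. In the library labelled female, 5 of 112 glomerular endothelial-like cells, those with 2 or more Pdgfrb UMIs, held 27 of 27 C1s1 UMIs and 45 of 50 Serping1 UMIs.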

How the results depend on the processing

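Of 132 counts of genes under the 12 settings listed at the outset, 114 were unchanged or within 1.5 times the reported count and 18 were not. Under the 3 settings added after seeing the data these were 31 and 2 of 33. The highest glomerular class of C3, C1s1, C1ra, Serping1, Cd55, Cd59a and Cr1l was the same in both libraries under the 12 settings that bear on levels, the added ones included. The counts that moved were mostly those of genes 1.5-fold or more apart between libraries. In parietal epithelial-like cells this count was 0 at a clustering resolution of 0.5, at a minimum of 50 CPM, with classes from single-cell markers, at a fold limit of 2 and with the Cst12-led cluster added, 2 without the cells of highest doublet score and 3 with no minimum. In mesangial-like cells it was 2 at a mitochondrial limit of 50% and with single-cell markers (Cd55 and Cd59a), and 1 when thinned (Cd59a). In glomerular endothelial-like cells it was 1 without the cells of highest doublet score, with each cell weighted equally and without the Pdgfrb cells (Cd59a each time), 4 with no minimum, and 0 at a minimum of 50 CPM and with single-cell markers. In podocyte-like cells it was 5 with no minimum. Components above podocyte-like cells numbered 1 at a minimum of 50 CPM in parietal epithelial-like (C3) and in mesangial-like cells (C1s1), and 1 in glomerular endothelial-like cells with no minimum (Cfb). Directions reversed for Cd55 in parietal epithelial-like cells when thinned (log2 ratio 0.22) and for Serping1 in glomerular endothelial-like cells without the Pdgfrb cells (-0.09). The cause was not tested. With the Cst12-led cluster added to the parietal epithelial-like class, its C3 was at 194 and 158 CPM. Of 360 levels under the settings listed at the outset 61 moved, and of 120 under the added ones 14. Cd59a in mesangial-like cells was at 193 and 113 CPM with the mitochondrial limit of 50% and at 179 and 96.2 CPM with single-cell markers. No paired analysis was possible because each group had 1 library. Depth limits the classes of few cells most: 0 counts in macrophage or monocyte-like cells allow 33.1 and 15.4 CPM.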

Other observations

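Within the Cst12-led cluster, the cells that held C3 had less Cd59a than the cells that did not, in both libraries. After thinning to 3000 UMIs, 19 and 16 cells held C3 and 133 and 111 did not. Cd59a was at 228 CPM (121 to 390.0) and 375 CPM (222 to 593) in cells with C3, and at 639 CPM (563 to 723) and 799 CPM (706 to 901) in cells without. In parietal epithelial-like cells Cd59a did not separate in this way, at 99.1 CPM (49.5 to 177) and 83.3 CPM (30.6 to 181) with C3 and 83.3 CPM (38.1 to 158) and 139.8 CPM (74.4 to 239) without. The comparison was chosen after seeing the data and has no replicate check.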
